A study of Mus musculus with 48 samples.

Results

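Liver RNA collected around subjective midday was compared with liver RNA collected around subjective midnight, in mice kept without light cues. The midday window held the pools of circadian hours 5 to 8 (CT29, CT30, CT31, CT32, CT53, CT54, CT55 and CT56) and the midnight window those of hours 17 to 20 (CT18, CT19, CT20, CT41, CT42, CT43, CT44 and CT65), so that 16 of the 48 hourly pools were used, 8 in each window. CT0 is subjective dawn, the start of the rest phase of a nocturnal mouse, and CT12 is subjective dusk, so the midday window lies in the rest phase and the midnight window in the active phase. All groups were wildtype male C57BL/6J mice, 6 weeks old, that had been entrained to 12 h of light and 12 h of darkness and then released into constant darkness. By design the windows differ in the circadian time of collection. They do not hold the same places in the 48 h series, so a drift along it was not balanced between them. Each pool combined liver RNA from 3 to 5 mice and was hybridized to 1 Affymetrix Mouse Genome 430 2.0 array, which reads transcripts through 45101 probe sets. Pools were made of different mice, so a pool is the replicate, and the spread within a window holds both the differences between mice and the 4 hours that the window spans. The series was sampled over 2 circadian cycles, CT18 to CT41 and CT42 to CT65, and each cycle holds every hour of both windows once, 4 pools against 4. The windows lie 12 h apart, so a transcript with a pure 12 h rhythm has no difference in this comparison.

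In the mammalian clock, BMAL1 and its partner CLOCK switch on the Period and cryptochrome genes, whose proteins then return to shut their own activators down. A second loop runs through the REV-ERB receptors, which repress the Bmal1 gene, and the ROR receptors, which activate it through the same DNA elements. In liver these factors sit above a large set of metabolic genes, and feeding, body temperature and glucocorticoid hormone, which follow the animal's day, act on many of the same genes.

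Intensities are given as deposited, on a linear scale in arbitrary units, and a difference is the midday mean minus the midnight mean of their log2 values, ± its standard error. Where several probe sets read one gene, the brightest over the series stood for it, which left 18194 genes. Array medians were between 96.5 and 99.7 in the midday pools and between 96.1 and 110.9 in the midnight pools. CT65 had the highest median of the 16 pools and the lowest 75th percentile (811.5, against 1039.4 at CT18), and CT65 and CT31 had the lowest median correlations with the other 47 pools, both 0.990. The pools just before CT65, CT61 to CT64, were alike, with medians of 105.8 to 110.4 and 75th percentiles of 797.1 to 839.5. Of these late pools only CT65 falls in a window, that of midnight, and the cause of the shift was not tested. Counts are therefore also given without CT31 and CT65. The pool at CT55 stood apart from its neighbours in clock genes. Dbp was 3464 at CT52, 63917 at CT53, 50016 at CT54, 16032 at CT55 and 97447 at CT56. Arntl was 3431, 319, 443, 1128 and 129.7 in the same pools. The cause was not tested. In a bulk sample, fewer cells of a type and less RNA per cell cannot be told apart.

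Of 45101 probe sets, 1469 (3.26%) were called higher at midday and 1237 (2.74%) higher at midnight, at an adjusted p under 0.05 in limma with Benjamini-Hochberg adjustment. Without CT31 and CT65 the counts were 1397 and 1307. They were 1342 and 1119 without CT55, and 1164 and 1023 without CT53. The balance moved with the scaling: quantile normalization gave 1330 and 1353, and centring each array on its median gave 1428 and 808. Counted by gene, 963 (5.29%) were higher at midday and 682 (3.75%) at midnight. Dim genes were seldom called, and among the 9254 genes with a mean intensity of 200 or more 955 (10.3%) were higher at midday and 665 (7.19%) at midnight, which are the shares against which the gene groups below can be read. Most differences were small, with a median fold of 1.37 among the genes called higher at midday and 1.35 among those called higher at midnight. A difference of more than 2-fold was measured in 78 called genes at midday and 57 at midnight, and of more than 4-fold in 10 and 7. The 8 midday pools all lay above the 8 midnight pools in 358 genes (1.97%), and all lay below them in 247 (1.36%).

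**Figure D1:**
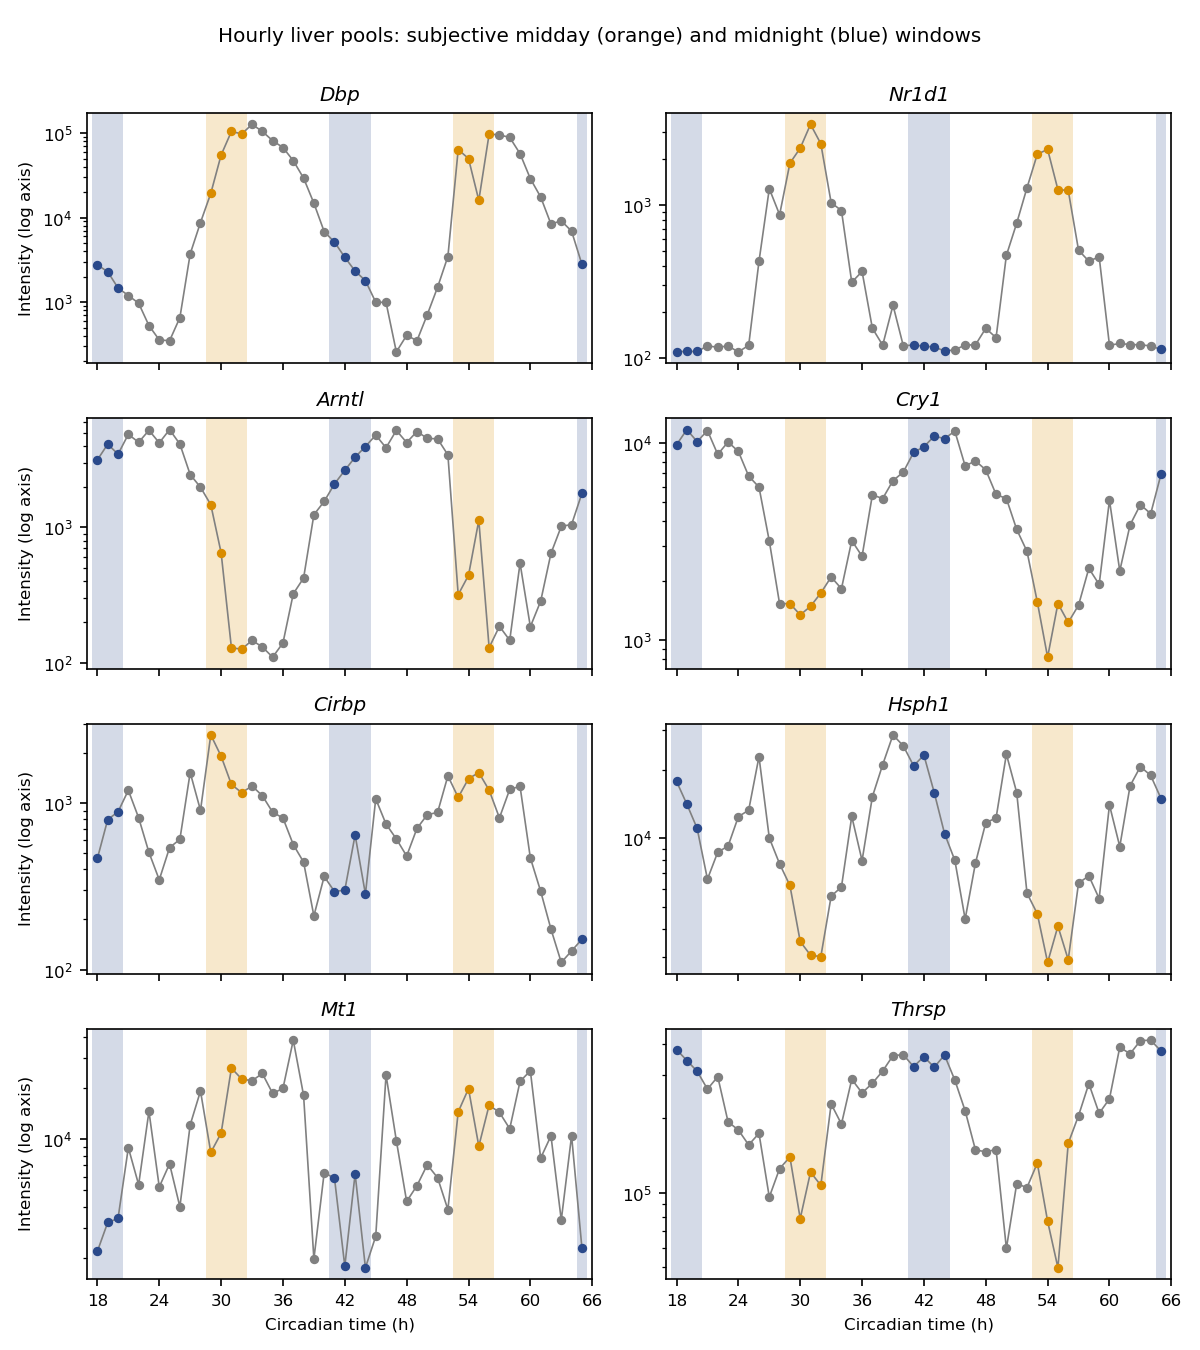
Intensity (log axis) of 8 genes in all 48 hourly pools against circadian time in hours, with 1 point per pool. The midday windows are shaded orange and the midnight windows blue. Dbp, Nr1d1, Cirbp and Mt1 were higher in the midday windows and Arntl, Cry1, Hsph1 and Thrsp in the midnight windows.

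The clock genes held the largest differences in both directions. Dbp, a PAR bZIP transcription factor driven directly by CLOCK and BMAL1, and Nr1d1, which encodes REV-ERB alpha, were far higher at midday, whereas Arntl, which encodes BMAL1, and the repressor gene Cry1 were far higher at midnight. For Dbp the lowest, median and highest intensities were 16032, 59452 and 104622 in the midday pools and 1472, 2547 and 5132 in the midnight pools. The windows did not overlap, with a difference of 4.34 ± 0.40 (20.3-fold, limma, adjusted p = 8.58e-06, n = 8 pools in each window). Nr1d1 was at 1247, 2228 and 3361 at midday and at 110.8, 113 and 122 at midnight. The midnight values were all close to the array medians, near background, so the 17.7-fold difference (4.14 ± 0.17, adjusted p = 2.43e-09) is limited by the dimmer window. Nr1d2, which encodes the related REV-ERB beta, was at 38712, 54788 and 65222 at midday and 10224, 13948 and 20146 at midnight, a 3.69-fold difference (adjusted p = 1.41e-06), again with no overlap.

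Arntl had midday intensities of 126, 381 and 1471, and midnight intensities of 1780.3, 3226 and 4113. Every midnight pool was above every midday pool, although the midday pools ran over a wide range, from CT32 at the bottom to CT29 at the top. The difference was -3.01 ± 0.51 (8.06-fold, adjusted p = 0.00165), a fold limited by the dim midday pools, since CT31, CT32 and CT56 were between 126.4 and 129.7, near background. Of the gene's probe sets, 1 other, dimmer one was not called. For Cry1 the values were 818, 1506 and 1731 at midday and 6921, 9956 and 11662 at midnight, with a difference of -2.82 ± 0.14 (7.05-fold, adjusted p = 1.59e-08). Cry1 varied less within the windows than Arntl did.

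Nfil3, a bZIP repressor that competes with the PAR bZIP factors for their sites, was higher at midnight by 2.6-fold (-1.38, adjusted p = 0.00208), from a median of 1365 at midday to 4233. Rora, a receptor that activates Arntl, was higher at midnight by 1.4-fold (-0.49, adjusted p = 0.0169) in its brightest probe set and in none of 8 others, and the call was lost when each array was centred on its median. Per2 had midday intensities of 178, 389 and 734 and midnight intensities of 482, 1048 and 1895, with overlapping windows. It was higher at midnight by 2.68-fold (-1.42, adjusted p = 0.0256), a call that was lost without CT18, CT42 or CT54 (adjusted p up to 0.0542).

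The other clock genes were not called in this contrast. Per1 had a median of 482 at midday and 486 at midnight, and only CT31, CT32 and CT56 of the midday pools stood above every midnight pool. Ciart, which encodes a repressor of CLOCK and BMAL1, was near background in most pools of both windows and reached 583 at CT56. The differences of the remaining genes, all with overlapping windows, were 0.67 ± 0.26 for Per3, 0.46 ± 0.23 for Tef, 0.32 ± 0.25 for Bhlhe40, 0.29 ± 0.21 for Hlf, 0.14 ± 0.13 for Cry2 and -0.38 ± 0.14 for Clock (adjusted p from 0.155 to 0.469). Of Per3, Tef and Clock, 1 other probe set each was called in the direction given. Npas2, a partner of BMAL1 in place of CLOCK, and Arntl2, Bhlhe41 and Rorb stayed near background in both windows.

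Promoter sequences are shown for genes that stood out in the midnight window, because the elements through which the clock and heat shock factors act have known letters. They run from 250 bases before to 50 after a transcription start that RefSeq lists for GRCm38.p6 and are written 5′ to 3′ on the gene's strand. Each was searched on both strands for the E-box CACGTG bound by CLOCK and BMAL1, the core of the ROR and REV-ERB element TAGGTCA, the D-box TTATGTAA of the PAR bZIP factors and a core of the heat shock element, GAANNTTC. Capitals mark the core of the ROR and REV-ERB element in Arntl and Nfil3, the E-box in Cry1, and the heat shock element core in Hsph1 and Hspb1.
Arntl (chr7:113207261-113207560, plus strand): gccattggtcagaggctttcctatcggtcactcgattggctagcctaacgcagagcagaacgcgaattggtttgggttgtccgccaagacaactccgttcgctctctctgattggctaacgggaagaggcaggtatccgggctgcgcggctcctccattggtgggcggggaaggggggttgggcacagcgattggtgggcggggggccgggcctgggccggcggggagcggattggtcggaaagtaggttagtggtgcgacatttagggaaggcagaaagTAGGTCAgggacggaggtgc
Nfil3 (chr13:52980990-52981289, minus strand): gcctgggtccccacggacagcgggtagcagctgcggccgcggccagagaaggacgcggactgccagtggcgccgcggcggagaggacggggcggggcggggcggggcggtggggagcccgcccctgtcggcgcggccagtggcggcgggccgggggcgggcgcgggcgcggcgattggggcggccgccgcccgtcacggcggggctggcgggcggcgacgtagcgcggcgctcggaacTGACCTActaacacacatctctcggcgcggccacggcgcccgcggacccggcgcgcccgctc
Cry1 (chr10:85185005-85185304, minus strand): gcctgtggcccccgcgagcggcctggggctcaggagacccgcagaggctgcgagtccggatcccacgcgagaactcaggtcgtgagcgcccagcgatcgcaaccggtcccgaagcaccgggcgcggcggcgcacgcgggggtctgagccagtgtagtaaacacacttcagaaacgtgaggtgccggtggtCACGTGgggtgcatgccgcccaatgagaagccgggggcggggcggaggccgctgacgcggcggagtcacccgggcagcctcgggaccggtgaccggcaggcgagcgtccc
Hsph1 (chr5:149636266-149636565, minus strand): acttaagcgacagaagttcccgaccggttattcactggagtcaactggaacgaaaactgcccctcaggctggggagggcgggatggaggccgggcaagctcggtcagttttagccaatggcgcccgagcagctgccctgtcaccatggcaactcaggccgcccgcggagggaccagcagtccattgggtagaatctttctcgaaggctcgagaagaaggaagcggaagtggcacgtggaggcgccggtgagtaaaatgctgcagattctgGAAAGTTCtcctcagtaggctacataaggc
Hspb1 (chr5:135887669-135887968, plus strand): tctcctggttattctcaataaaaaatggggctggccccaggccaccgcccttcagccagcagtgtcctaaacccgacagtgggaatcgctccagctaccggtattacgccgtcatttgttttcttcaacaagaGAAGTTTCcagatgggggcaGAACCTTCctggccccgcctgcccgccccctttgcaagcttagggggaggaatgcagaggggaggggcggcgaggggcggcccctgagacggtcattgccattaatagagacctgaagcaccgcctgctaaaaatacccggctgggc
Where several starts were listed, a window with the most matches to the marked element was printed. The element core in Arntl begins 30 bases after the start shown, the farther downstream of 2 starts listed. The window of the other Arntl start holds no match to it. The core in Nfil3, on the opposite strand, begins 12 bases before the start. The E-box of Cry1 begins 60 bases before the start, the heat shock core of Hsph1 20 bases after it, and the 2 of Hspb1 117 and 97 bases before it. The Hsph1 window also holds 1 E-box, left in lower case. Among all 32851 promoters of this length, 2.61% hold the ROR and REV-ERB core, 7.15% the E-box, 0.938% the D-box and 7.86% the heat shock core. No match to these letters was found in the same window of Dbp or Nr1d1, which says nothing of elements elsewhere in those genes. Among genes with a mean intensity of 200 or more and a promoter listed, the E-box was in 12.3% of all, 14.2% of those called higher at midday and 14.3% of those called higher at midnight, with a match at any listed start counted. The heat shock core was in 7.11%, 5.70% and 9.86%, respectively. A match describes the letters and not a bound site.

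Outside the clock, the largest midday differences came from genes of diverse function. Clec2h, which encodes a C-type lectin-like membrane protein, was at 9295, 13811 and 18521 in the midday pools and 924, 1697 and 3301 in the midnight pools, 8.45-fold apart (3.08 ± 0.23, adjusted p = 1.22e-06). Trib3, a pseudokinase that binds AKT and restrains insulin signaling, was at 1272, 1606 and 1838 at midday and 137, 200.2 and 259.9 at midnight (7.61-fold, 2.93 ± 0.12, adjusted p = 2.43e-09). Its probe set is of a kind that can also bind other transcripts, and 1 other probe set of the gene was called in the same direction. Neither gene had any overlap between the windows.

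Arrdc3, an arrestin domain protein, was one of the brightest of these genes, at 38007, 52716 and 58849 at midday against 4082, 8465 and 11140.0 at midnight (6.58-fold, 2.72 ± 0.19, adjusted p = 7.45e-07). Rgs16, which shortens G protein signals, varied widely within the midday window. It rose from 473 at CT29 to 2811 at CT31 and was 2022.5 at CT32. In cycle 2 it was 1171.1, 776.6, 778.1 and 3968 at CT53 to CT56. It lay between 177.8 and 355.3 in the midnight pools (5.25-fold, 2.39 ± 0.37, adjusted p = 0.000897). Of the 2 other probe sets of Rgs16, 1 was called in the same direction. Gpcpd1, which breaks down glycerophosphocholine, was 3.85-fold higher at midday (1.94 ± 0.16, adjusted p = 2.55e-06), and its 3 other probe sets were called in the same direction. Fbxo21, a substrate receptor of a ubiquitin ligase, was 4.68-fold higher (2.23 ± 0.20, adjusted p = 7.55e-06). Syt1, a calcium sensor of vesicle fusion, was 4.84-fold higher (2.28 ± 0.17, adjusted p = 1.19e-06) in the brightest of its probe sets and in none of 3 others. Arrdc3, Rgs16, Gpcpd1, Fbxo21 and Syt1 had no overlapping pools.

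At midnight, Lonrf3, a RING finger protein, was at 913, 1183 and 1455, against 102, 179.5 and 424 at midday (6.24-fold, -2.64 ± 0.27, adjusted p = 2.41e-05). Its midday values at CT30 and CT55 were near background, which limits the fold. Ppp1r3b, the subunit that brings protein phosphatase 1 to glycogen and thereby favours its synthesis, was at 32394, 41049 and 47739.7 at midnight and 4684, 6417 and 13109 at midday (5.98-fold, -2.58 ± 0.18, adjusted p = 7.45e-07). For Chka, the choline kinase that opens phosphatidylcholine synthesis, the midnight values were 1034, 3172 and 5169 and the midday values 175, 475 and 910.1 (5.96-fold, -2.57 ± 0.39, adjusted p = 0.000753). Within the midnight window Chka was highest at CT19 and lowest at CT41, while Ppp1r3b varied far less. Nat8f5, an N-acetyltransferase gene of a family of close copies, was 4.9-fold higher at midnight (-2.29 ± 0.14, adjusted p = 2.3e-07), and Slc10a2, a sodium-dependent bile acid transporter, 3.54-fold (-1.82 ± 0.21, adjusted p = 6.33e-05). None of these 5 genes had overlapping pools.

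**Figure D2:**
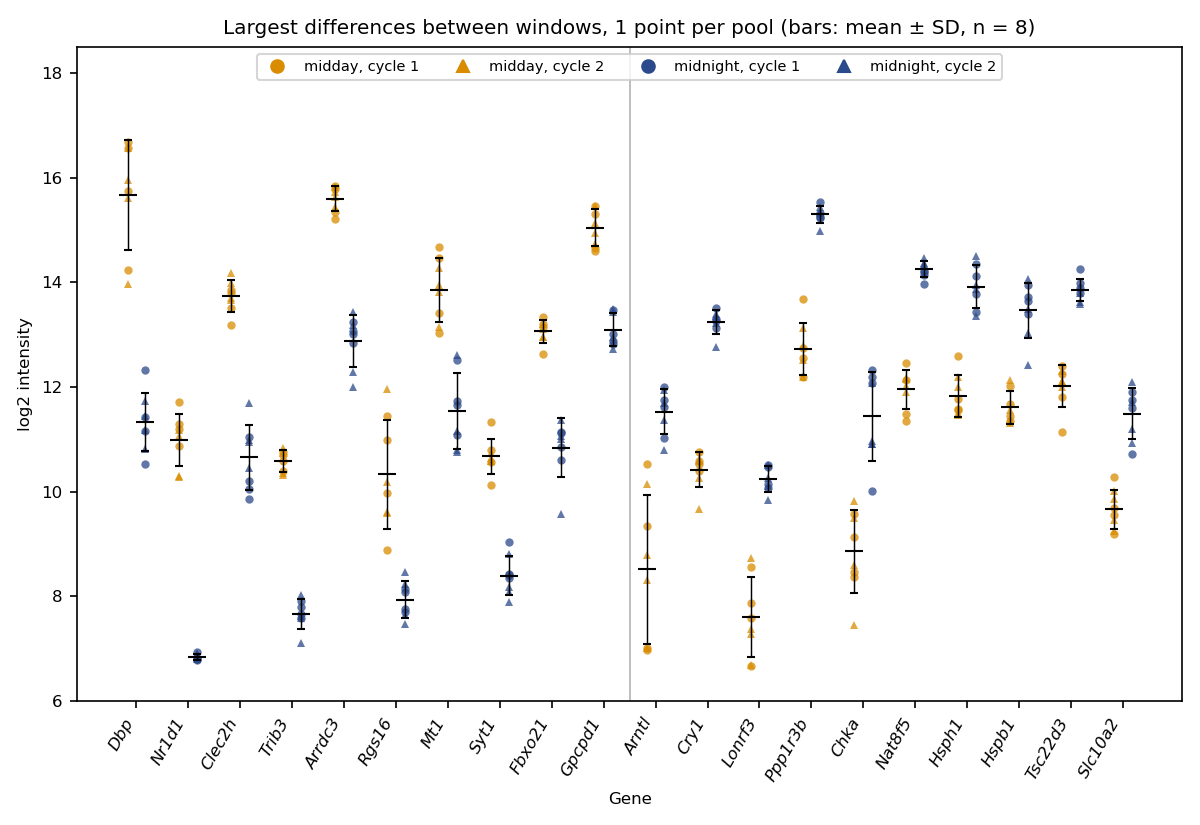
Log2 intensity in each of the 16 pools for the 10 genes with the largest difference in each direction among called genes whose windows do not overlap. Orange points are midday and blue points midnight pools, circles are cycle 1 and triangles cycle 2, and bars show the mean ± SD of 8 pools. Since genes with overlapping windows were left out, the pools of both cycles fall on the same side in each.

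Heat shock genes were called mainly at midnight. Of 21 measured members and partners of the heat shock machinery, 12 were higher at midnight and 1 at midday, with a median difference of -0.52, and the counts without CT31 and CT65 were also 12 and 1. Over all 18194 genes the median difference was -0.021, and over those with a mean of 200 or more it was 0.029. Hsph1, an HSP110 exchange factor for HSP70, was at 10486, 15420.0 and 23210.2 at midnight and at 2839.6, 3283 and 6194 at midday (4.25-fold, -2.09 ± 0.19, adjusted p = 8.47e-06). Hspb1, the small heat shock protein HSP27, was at 5481, 12198 and 17221 and 2536, 2907 and 4512, respectively (3.61-fold, -1.85 ± 0.21, adjusted p = 5.35e-05). In both genes all midnight pools were above all midday pools, and in Hspb1 the lowest midnight pool was CT65. Outside the windows Hsph1 was also high in the early subjective day, at 22846.9 at CT26 and 23436.0 at CT50. Its highest value over the series was 28495.6 at CT39. The comparison of windows therefore does not show when Hsph1 peaks.

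The cytosolic HSP90 gene Hsp90aa1 was 2.31-fold higher at midnight (-1.21 ± 0.16, adjusted p = 0.000225), as were its cochaperones Stip1 (2.51-fold), Ahsa2 (1.86-fold), Chordc1 (1.95-fold) and Ahsa1 (1.5-fold). Hspa4l was 2.92-fold higher (-1.55 ± 0.16, adjusted p = 3.05e-05), and all 4 of its other probe sets were called in the same direction. Bag3 (1.67-fold), Dnaja1 (1.44-fold) and the mitochondrial pair Hspe1 (1.33-fold) and Hspd1 (1.15-fold) were also higher at midnight. Pools overlapped between the windows in Bag3, Dnaja1 and Hspd1 and in none of the other 9.

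Hspa4 was the exception in the list, higher at midday by 1.32-fold (0.40 ± 0.048, adjusted p = 9.48e-05) in its brightest probe set, while 1 of 3 others was called the other way. The inducible Hspa1b, whose probe sets cannot be told from those of its near-identical copy, was between 6802.6 and 34233.9 at midnight and between 6555.1 and 11538.5 at midday and was not called (-0.77 ± 0.30, adjusted p = 0.195). The constitutive Hspa8 was not called either (-0.20 ± 0.15, adjusted p = 0.434). Of 18 list members with a promoter listed, 10 hold the heat shock core in at least 1 window, as do 7 of the 11 such genes called higher at midnight, but the list was drawn up from genes known to answer to heat shock.

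Chaperones of the endoplasmic reticulum (ER) differed less. Of 20 measured, 4 were higher at midnight and 0 at midday, with a median of -0.18, and 0 were called without CT31 and CT65. Manf, a secreted ER stress protein, was at 52088, 69232 and 100062 at midnight and 25307, 38249 and 68513 at midday (-0.85 ± 0.21, adjusted p = 0.0252), and was not called without CT32, CT42 or CT56 (adjusted p up to 0.053). Hspa5, the ER chaperone BiP, differed by -0.48 ± 0.13 (adjusted p = 0.0407) and lost the call without any 1 of 12 pools, and Dnajb9 (-0.63 ± 0.17) without any 1 of 11. Ero1a, an oxidase of the folding pathway, differed by -0.34 ± 0.083 (adjusted p = 0.0233). Of 17 genes of ER-associated degradation and the unfolded protein response none was called, with a median of -0.11. Without CT31 and CT65, 3 of them were called higher at midnight. In ER to Golgi transport 1 of 21 was called, the COPII GTPase gene Sar1b, higher at midnight by 1.25-fold (adjusted p = 0.00024).

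Among RNA-binding proteins known to rise with cooling, 2 of 3 measured were higher at midday. Cirbp was at 1084, 1350.4 and 2574 at midday and 152, 383 and 888 at midnight, with no overlap (3.55-fold, 1.83 ± 0.33, adjusted p = 0.00286). Its lowest midnight pool was CT65. Srsf5, a splicing factor, was 1.41-fold higher at midday (adjusted p = 0.0365), but lost the call without any 1 of 8 pools, and without CT31 and CT65 together, which left 1 of the 3 called.

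**Figure D3:**
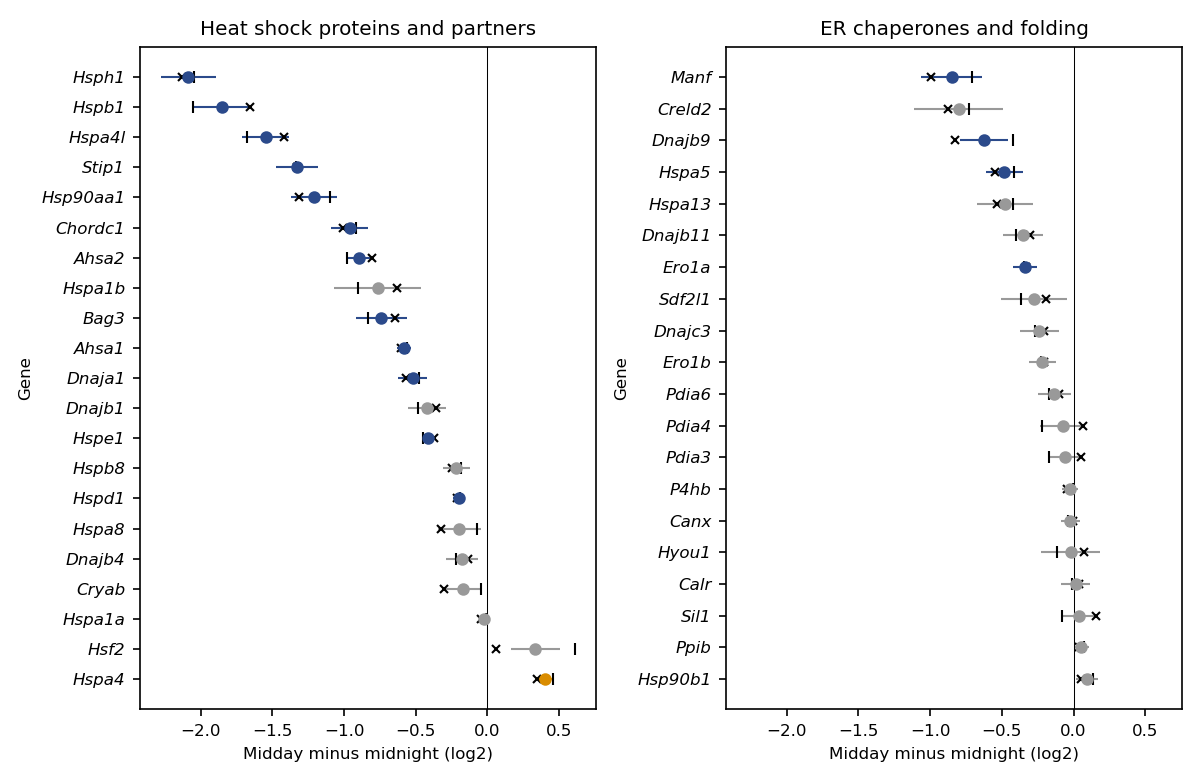
Difference between the midday and midnight windows (log2, points with bars of 1 standard error over 16 pools) for 21 heat shock proteins and partners and 20 ER chaperones. Blue points were called higher at midnight, orange points higher at midday and grey points not called, and the upright tick and the cross give the difference in cycle 1 and in cycle 2. The heat shock genes at the top lie below zero in both cycles.

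Of 15 genes of fatty acid synthesis, 5 were higher at midnight and 0 at midday, with a median of -0.36. The midnight count was 8 without CT31 and CT65. Thrsp, the lipogenic factor also called Spot 14, was at 310615, 349282 and 380218 at midnight and at 49720.4, 114196 and 158594 at midday, with no overlap (3.4-fold, -1.77 ± 0.19, adjusted p = 4.2e-05). Fasn, the fatty acid synthase, was at 20149, 39044 and 82992 and 9348, 16283 and 22412, with overlapping pools (2.56-fold, -1.36 ± 0.28, adjusted p = 0.00769). The elongases Elovl6 (2.26-fold) and Elovl1 (1.57-fold) and Acly, which supplies the acetyl-CoA (1.94-fold), were also higher. Acaca, the acetyl-CoA carboxylase gene (-0.29 ± 0.21, adjusted p = 0.433), and the desaturase gene Scd1 (-0.038 ± 0.079, adjusted p = 0.742) were not called. In triglyceride synthesis, Agpat2 (1.61-fold, -0.68 ± 0.086, adjusted p = 0.00015) and Gpam (1.44-fold) were higher at midnight, and the other 6 of 8 genes were not called.

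Cholesterol synthesis had 5 of 17 genes higher at midnight and 0 at midday, with a median of -0.13, and 7 without CT31 and CT65. Pmvk, phosphomevalonate kinase, was at 11073, 18218 and 21765 at midnight and 5573, 8164 and 10172 at midday, with no overlap (2.15-fold, -1.10 ± 0.16, adjusted p = 0.000572). The next enzyme of the pathway, Mvd, was 2.25-fold higher, Lss, the lanosterol synthase, 1.92-fold, Sqle, the squalene epoxidase, 1.72-fold and Fdps, the farnesyl diphosphate synthase, 1.65-fold (adjusted p from 0.00278 to 0.0191). In all 5 the lowest midnight pool was CT65 and the highest CT18. The members did not move as one: Hmgcs1, which makes the precursor of mevalonate, had medians of 142412 at midday and 125756 at midnight and was not called (0.30 ± 0.14, adjusted p = 0.307). The medians of both lipid synthesis lists were further below zero in cycle 1, -0.60 for fatty acids and -0.26 for cholesterol, than in cycle 2, -0.19 and -0.028, a difference that was not tested.

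Of 11 genes of PPAR alpha and fasting, 4 were higher at midday and 1 at midnight, with a median of 0.28. These became 3, 1 and 0.17 without CT31 and CT65. Ppargc1b, the coactivator PGC-1 beta, was at 1846, 3067 and 4209.7 at midday and 599.6, 841 and 1238 at midnight, with no overlap (3.21-fold, 1.68 ± 0.21, adjusted p = 0.000106). Ppara itself was 1.59-fold higher at midday (0.67 ± 0.16, adjusted p = 0.02) and Angptl4, an inhibitor of lipoprotein lipase, 1.65-fold (0.72 ± 0.16, adjusted p = 0.0147). The lipid droplet gene Plin2 was 1.21-fold higher and lost the call without any 1 of 8 pools. Pdk4, which shuts glucose carbon out of the citric acid cycle in fasting, went against the others, at 987, 2283 and 4102 at midnight and 373, 482 and 1840.3 at midday (3.29-fold, -1.72 ± 0.41, adjusted p = 0.0197).

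In fatty acid oxidation and ketone synthesis, 3 of 15 genes were higher at midday and 1 at midnight, with a median of 0.054. Without CT31 and CT65 the counts were 2 and 1 and the median 0.0039. Bdh1, which makes hydroxybutyrate, was 1.33-fold higher at midday with no overlap (0.41 ± 0.060, adjusted p = 0.000557) and Cpt1a, the gate of mitochondrial fatty acid entry, 1.6-fold (0.68 ± 0.15, adjusted p = 0.012). The difference in Acadm was 1.08-fold, and its call was lost without any 1 of 9 pools. Acot1, a thioesterase with close copies in the genome, was 2.01-fold higher at midnight (-1.01 ± 0.14, adjusted p = 0.000351).

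Glucose genes were split by enzyme. Of 9 gluconeogenic genes, Pck1, the PEP carboxykinase, was higher at midday, at 214447, 236359 and 307172 against 98251, 153741 and 205723 at midnight, with no overlap (1.7-fold, 0.76 ± 0.15, adjusted p = 0.00467). The genes that act on glucose 6-phosphate at the end of the path were higher at midnight, the transporter Slc37a4 by 1.49-fold (-0.58 ± 0.077, adjusted p = 0.000226) and the catalytic subunit G6pc by 1.71-fold (-0.78 ± 0.18, adjusted p = 0.0175). Tat, a tyrosine aminotransferase, was also higher at midnight (1.69-fold, -0.76 ± 0.096, adjusted p = 0.000146), and Got1 higher at midday (1.41-fold), a call lost without any 1 of 14 pools. The median of the list was -0.060, and without CT31 and CT65 1 of the 9 was higher at midday and 4 at midnight.

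Of 8 glycolytic genes, 3 were higher at midnight and 0 at midday: Pklr, the liver pyruvate kinase, by 1.98-fold (-0.99 ± 0.20, adjusted p = 0.00607), Pgk1 by 1.2-fold and Gapdh by 1.1-fold. Only 1 of the 3 was called when each array was centred on its median. In glycogen metabolism, 3 of 10 were higher at midnight, namely Ppp1r3b, its relative Ppp1r3c (1.95-fold, -0.96 ± 0.19, adjusted p = 0.00498) and the branching enzyme Gbe1 (1.31-fold, adjusted p = 0.0024). Gyg, glycogenin, which starts the glycogen chain, was 1.38-fold higher at midday (adjusted p = 0.00337) and Phka2, a subunit of the kinase that switches on glycogen breakdown, 1.57-fold (adjusted p = 0.0147), both with no overlap. Gys2, the liver glycogen synthase, was not called (-0.29 ± 0.16, adjusted p = 0.378).

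Insulin signaling had 4 of 13 genes higher at midday and 0 at midnight, with a median of 0.23, and the counts were the same without CT31 and CT65. Beside Trib3, Grb14, an adaptor that blocks the insulin receptor, was at 12233, 13161 and 14202 at midday and 5737, 8808 and 10103 at midnight, with no overlap (1.56-fold, 0.64 ± 0.092, adjusted p = 0.000424). Pik3ca, a catalytic subunit of PI3-kinase, was 1.3-fold higher (adjusted p = 0.0176). The receptor gene Insr was 1.66-fold higher at midday (0.73 ± 0.19, adjusted p = 0.0306), a call that was lost without CT31, CT32, CT44, CT53 or CT56 (adjusted p up to 0.0658). Its lowest midnight pool was CT65.

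Glucocorticoid-responsive genes were divided between the windows, 3 of 13 being higher at midday and 5 at midnight, with a median of -0.28, and 3 and 4 without CT31 and CT65. Mt1, a metallothionein that binds zinc and copper, was at 8357, 15205 and 26323 at midday and 1742, 2755 and 6253 at midnight, with no overlap (4.95-fold, 2.31 ± 0.32, adjusted p = 0.000343). The 1 other probe set of Mt1 was not called. Mt2 was 4.18-fold higher at midday (2.06 ± 0.38, adjusted p = 0.00367), and Klf9, a Krüppel-like factor, 1.86-fold (0.90 ± 0.14, adjusted p = 0.00116). Metals also induce both metallothioneins.

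The midnight members of the list were led by Tsc22d3, which encodes the anti-inflammatory protein GILZ, at 12377, 14776 and 19467 at midnight and 2252, 4394 and 5420.4 at midday (3.59-fold, -1.84 ± 0.15, adjusted p = 2.69e-06). The MAP kinase phosphatase gene Dusp1 was 2.1-fold higher (-1.07 ± 0.13, adjusted p = 7.54e-05), with no overlap in either gene. Fkbp5, an HSP90 cochaperone that restrains the receptor, was 1.85-fold higher (-0.89 ± 0.18, adjusted p = 0.00721). Tat belongs to this list as well, and Cebpd was 1.26-fold higher, a call lost without any 1 of 12 pools. The receptor gene Nr3c1 had medians of 16167 and 14855 and was not called (0.11 ± 0.050, adjusted p = 0.305).

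In bile acid metabolism the median difference was -0.011, 8 of 13 genes were not called, and the called genes fell on both sides. Cyp7a1, the rate-limiting enzyme of bile acid synthesis, was at 31600.3, 55490.1 and 73719.7 at midnight and 17586, 24436 and 52369 at midday (2.02-fold, -1.02 ± 0.22, adjusted p = 0.0116), with overlapping pools. Slco1b2, which takes bile acids and drugs up from the blood, was 1.28-fold higher at midday (0.35 ± 0.046, adjusted p = 0.000204). The canalicular exporters Abcb11 (1.46-fold, adjusted p = 0.00168) and Abcc2 (1.4-fold, adjusted p = 0.0204) were higher at midday too, although Abcc2 was not called without CT31 and CT65 (adjusted p = 0.0646). Baat, which conjugates bile acids, was 1.17-fold higher at midnight, and lost the call without any 1 of 11 pools. Of 13 genes measured, 3 were higher at midday and 2 at midnight, and without CT31 and CT65 the counts were 2 and 1. The bile acid transporter gene Slc10a2, described above as higher at midnight, was not among the 13.

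Nampt, which catalyses the slowest step in the recycling of nicotinamide to NAD, was at 8638, 9779 and 11902 at midnight and 4081, 4823 and 7307 at midday, with no overlap and 2 other probe sets called in the same direction (1.97-fold, -0.98 ± 0.10, adjusted p = 3.44e-05). Nadk, which turns NAD into NADP, was 1.26-fold higher at midnight, whereas the mitochondrial sirtuin genes Sirt5 (1.27-fold) and Sirt3 (1.19-fold) were higher at midday (adjusted p from 0.00103 to 0.0177 for the 3 genes). The adjusted p of Sirt3 was 0.0534 without CT31 and CT65. Sirt1 was not called (0.11 ± 0.083, adjusted p = 0.435). In the urea cycle, Asl, argininosuccinate lyase, was the only call among 9 genes, at 106787, 120817 and 136631 at midnight and 64276, 74118 and 81504 at midday (1.64-fold, -0.72 ± 0.051, adjusted p = 8.7e-07).

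Of 13 amino acid breakdown genes, 3 were higher at midday and 0 at midnight. They were Hal, which opens histidine breakdown (1.44-fold, no overlap, adjusted p = 0.00286), Cdo1, the cysteine dioxygenase (1.27-fold, adjusted p = 0.00907), and Oat, the ornithine aminotransferase (1.2-fold, adjusted p = 0.024), whose call was lost without CT42 or CT53. Serine, glycine and one-carbon genes had 0 of 13 higher at midday and 4 at midnight: Psph (1.58-fold), Shmt1 (1.23-fold), Bhmt2 (1.16-fold) and Ahcy (1.12-fold). With each array centred on its median 1 of the 4 was called.

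**Figure D4:**
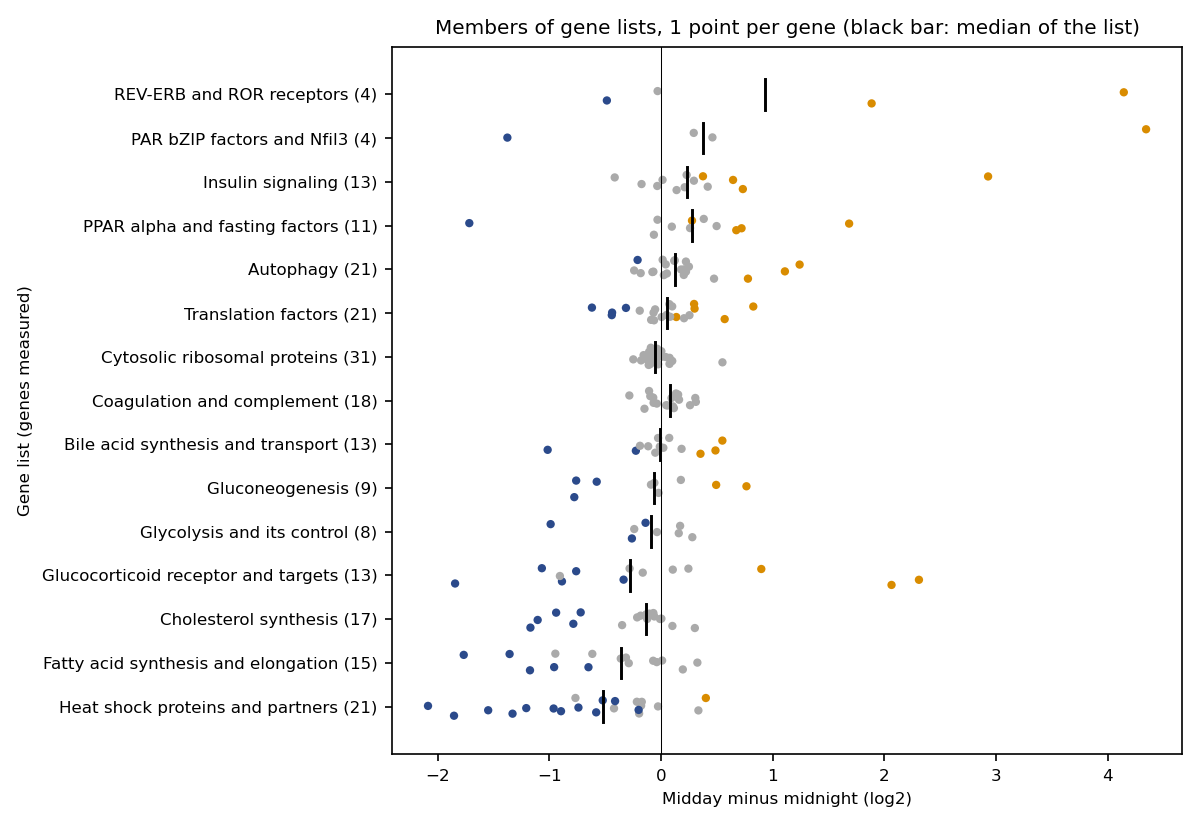
Difference between the midday and midnight windows (log2) for the members of 15 gene lists, with 1 point per gene, the number of genes measured in brackets and the median of each list as a black bar. Orange points were called higher at midday, blue points higher at midnight and grey points not called. Most heat shock and fatty acid synthesis genes lie left of zero, and the ribosomal protein and coagulation lists hold no call.

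Of 21 autophagy genes 3 were higher at midday and 1 at midnight, shares not far from those of all genes with a mean of 200 or more (10.3% and 7.19%). Gabarapl1, an ATG8 family protein of the autophagosome membrane, was at 70527, 79811 and 90365 at midday and 22467, 35653 and 41833 at midnight, with no overlap (2.36-fold, 1.24 ± 0.10, adjusted p = 2.21e-06). Atg14 (1.71-fold, adjusted p = 0.0063) and Ulk1, the kinase that starts autophagy (2.16-fold, 1.11 ± 0.28, adjusted p = 0.027), were higher at midday as well. Ulk1 lost the call without CT31 or CT32 (adjusted p up to 0.0582). Atg3 was 1.16-fold higher at midnight, and the other 17 of 21 genes were not called.

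Of 14 genes of iron handling 3 were higher at midday and 1 at midnight, with a median of -0.023, and without CT31 and CT65 the counts were 2 and 1. Tfrc, the transferrin receptor, was at 14827, 19751 and 25023 at midnight and 4645, 6607 and 9623 at midday, with no overlap, and all 5 of its other probe sets were called in the same direction (2.86-fold, -1.51 ± 0.17, adjusted p = 4.19e-05). The iron exporter gene Slc40a1 (1.42-fold, 0.51 ± 0.075, adjusted p = 0.000557) and Ireb2, an iron regulatory protein that stabilizes the Tfrc message (1.38-fold, 0.46 ± 0.060, adjusted p = 0.000168), were higher at midday. Id1 was 1.6-fold higher at midday and lost the call without CT18, CT31, CT32, CT56 or CT65 (adjusted p up to 0.0628). In heme metabolism, Hmox2 and Fech were higher at midday and Blvrb and Urod at midnight, by 1.11- to 1.24-fold, and only Blvrb kept its call with any 1 pool left out.

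Drug metabolism showed few calls. Of 15 cytochrome P450 genes, Cyp2b10, an inducible target of the receptor CAR, was higher at midnight, at 2133, 3753 and 5605 against 726, 1445 and 1558 at midday, with no overlap (2.66-fold, -1.41 ± 0.22, adjusted p = 0.000912). Cyp3a25 was 1.16-fold higher at midday. Among 16 conjugating enzymes and esterases, Ces1d (1.55-fold, -0.63 ± 0.064, adjusted p = 2.21e-05), Sult1a1 (1.27-fold) and Gsta3 (1.21-fold) were higher at midnight and Ugt2b35 (1.33-fold, 0.41 ± 0.060, adjusted p = 0.000459) at midday. These families hold close copies whose probe sets may share signal. Of 13 metabolic nuclear receptors the calls were Ppara, at midday, and the estrogen receptor Esr1, at 6014, 9345 and 10363 at midnight and 3019, 3928 and 5189 at midday (2.24-fold, -1.16 ± 0.13, adjusted p = 4.35e-05).

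Immediate early genes, which respond within minutes to growth and stress signals, had 3 of 13 higher at midday and 0 at midnight. Klf10 was at 1163, 2332 and 4274 at midday and 503, 811 and 1284 at midnight (2.75-fold, 1.46 ± 0.24, adjusted p = 0.00145). Junb, a component of AP-1, had a median of 267 at midday and 78.1 at midnight (1.62 ± 0.27, adjusted p = 0.00146). In 7 of the 8 midnight pools it was between 55.3 and 84.1, below the array medians, so that 3.08-fold is limited by the dimmer window, and the overlap of its windows came from CT43. Klf6 was 1.48-fold higher and lost the call without any 1 of 11 pools.

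The machinery of translation was mixed. Of 21 translation factors, 5 were higher at midday and 4 at midnight. Eif4ebp2, a repressor of cap-dependent initiation (1.77-fold, 0.83 ± 0.14, adjusted p = 0.00177), and Eif4b, a helper of the eIF4A helicase (1.48-fold, 0.57 ± 0.062, adjusted p = 4.02e-05), were higher at midday, both with no overlap. Eif1a was 1.54-fold higher at midnight and Eif4e, the cap-binding protein, 1.36-fold, together with the exchange factor subunits Eif2b3 and Eif2b1. Eif4a2 was the only one of the other 3 midday calls that did not depend on single pools (1.23-fold), since Eif5 lost its call without any 1 of 11 pools and Eif3c without CT42, CT43 or CT53.

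In ribosome biogenesis, 4 of 25 genes were higher at midnight, Nolc1 (1.89-fold), Nop58 (1.58-fold), Tsr1 (1.34-fold) and Nob1 (1.26-fold), all without overlap. Utp14a (1.47-fold) and Gnl3 (1.37-fold) were higher at midday, and Gnl3 lost its call without any 1 of 8 pools. None of 31 cytosolic ribosomal proteins was called, with a median of -0.058, and none of 18 coagulation and complement genes, with a median of 0.077. Of 39 respiratory chain genes 5 were called, all higher at midnight and by 1.22-fold or less, and 2 when each array was centred on its median. Of the 5, Sdhb, Sdhd and Cycs lost the call when single pools were left out. Of 31 proteasome genes, Psmd11 (1.21-fold) and Psma5 (1.2-fold) were higher at midday, and both calls were lost with single pools left out, that of Psmd11 without CT53.

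The remaining lists had 3 calls or fewer, with folds under 1.5 unless given. Gadd45a was the call among 20 cell cycle genes (1.5-fold at midday, lost without CT31 and CT65 with an adjusted p of 0.0603) and Mcm10 among 7 replication helicase genes, at 17219, 25615 and 30380.0 at midday and 11091, 14846 and 16558 at midnight (1.76-fold, 0.81 ± 0.11, adjusted p = 0.000301). Jak2 was higher at midday among 11 genes of the growth hormone axis. Gclc at midday and Prdx2 at midnight were called among 15 antioxidant genes, Tars and Farsb at midnight among 20 aminoacyl-tRNA synthetases, Mttp at midnight among 14 lipoprotein genes, and Fga and Fgb at midday and Saa4 at midnight among 16 acute phase genes. Of these, Gclc, Tars, Farsb, Fgb and Saa4 lost their calls when single pools were left out. None of 7 clock protein kinases and turnover factors and none of 7 genes of sterol sensing and uptake was called. Without CT31 and CT65, 1 gene each of sterol sensing and of coagulation and complement was called at midday.

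Of 12 genes taken from the study as 12 h genes, 6 were higher at midnight and 1 at midday, with a median of -0.53. The study's text describes them as 12 h genes of the liver, except Yipf5, which it names only among its quantitative PCR assays. Beside Hspa5, Manf and Dnaja1, the midnight genes were Ints2, an Integrator subunit (1.72-fold, -0.78 ± 0.12, adjusted p = 0.000912), Gmppb, which makes GDP-mannose (1.58-fold, adjusted p = 0.0191), and Gramd3 (1.17-fold, adjusted p = 0.0189). Dsc2, a desmosomal cadherin, was at 6395, 6827 and 7496 at midday and 3287, 4467 and 5303 at midnight, with no overlap (1.61-fold, 0.68 ± 0.081, adjusted p = 7.96e-05). Hspa1b, Creld2 (-0.80 ± 0.31), Sec23b (-0.53 ± 0.17), Yipf5 (-0.16 ± 0.066) and Gosr2 (-0.15 ± 0.058) were not called (adjusted p from 0.0803 to 0.203). Without CT31 and CT65, 3 genes were called at midnight and 1 at midday. Apart from Yipf5, the study chose these genes on these same pools, for their 12 h rhythm, so the list is no independent evidence of a direction.

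Few markers of the liver's cell types were called. Of 7 hepatocyte markers only Tat and Fgb, described above, were called, and the list was bright, with a summed intensity of 3388880 to 3547760 in the midday pools and 3379950 to 3590920 in the midnight pools. The 8 markers of sinusoidal endothelial cells had a median difference of 0.085. Of these, Lyve1 (-0.60 ± 0.16, adjusted p = 0.0335) and Clec4g (-0.37 ± 0.10, adjusted p = 0.0418) were called, both higher at midnight. The summed level was 25556 to 33868 at midday and 31329 to 35347 at midnight. Clec4g alone gave 11746.2 to 20016.9 and 18214.4 to 24384.5 of it. The calls of Lyve1 and Clec4g were lost without CT31 and CT65, and each without any 1 of 10 or more pools. Col3a1, 1 of 8 stellate cell markers, was higher at midday (0.59 ± 0.16), a call lost without any 1 of 12 pools. The summed stellate level was 69901 to 88701 at midday and 65282 to 83141 at midnight. No marker was called among 10 of Kupffer cells, 4 of bile duct, 8 of lymphocytes, 7 of neutrophils, 3 of erythroid cells, 8 of pancreatic acinar cells and 3 of adipocytes, and all 3 adipocyte markers had a mean under 100, near background. The part of cell types in the differences above was not tested.

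Most calls had the same direction in both cycles. With 4 pools against 4 and a spread shared by both cycles, 828 probe sets (1.84%) were called in cycle 1 and 1039 (2.3%) in cycle 2. The share of calls that were higher at midday was 45.4% in cycle 1 and 63.5% in cycle 2. The latter moved with the scaling, to 50.8% after quantile normalization and 75.3% when each array was centred on its median. With each cycle fitted alone, 522 probe sets were called in cycle 1, of which 510 (97.7%) had the same direction in cycle 2, and 673 were called in cycle 2, of which 663 (98.5%) had the same direction in cycle 1. Over all probe sets 71.0% had the same direction in both cycles. The median size of the difference was 0.62 in cycle 1 and 0.59 in cycle 2 for the first set, and 0.54 and 0.65 for the second, so each set was smaller in the cycle that had not chosen it. Of the 522 probe sets, 190 were also called in cycle 2 alone. Across genes with a mean of 200 or more the differences of the 2 cycles had a Pearson correlation of 0.82 (n = 9254 genes), and across all genes 0.77. Genes are not independent of each other, and the cycles share no pool.

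The leading genes were chosen over all 16 pools, which fixes their direction in each cycle, so their values by cycle only describe sizes. The difference of Dbp was 4.45 in cycle 1 and 4.23 in cycle 2, and that of Nr1d1 4.44 and 3.84. Arntl had -3.14 and -2.88, Cry1 -2.73 and -2.90, and Per2 -1.36 and -1.49. Among metabolic genes, Ppp1r3b had -2.55 and -2.62, Tfrc -1.50 and -1.53, and Stip1, the HSP90 cochaperone, -1.33 and -1.33. The median of the heat shock list was -0.49 in cycle 1 and -0.57 in cycle 2.

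The difference between the cycles was tested as an interaction by limma. It was called for 1 of 45101 probe sets (0.00222%), and for 0 after quantile normalization. An unadjusted p under 0.05 was found for 1176 (2.61%), a smaller share than that threshold alone would give by chance. This test is coarse, since the median standard error of a difference between cycles was 0.185 on the log2 scale among genes with a mean of 200 or more, against 0.096 for the difference between windows, so small changes between cycles were not detectable. The 1 probe set belongs to Ankrd39, an ankyrin repeat protein. Its intensities were 956.4, 903.0, 971.3 and 996.4 in the midnight pools of cycle 1 and 478.6, 540.8, 517.9 and 516.2 in those of cycle 2, while its midday pools were 498.0 to 720.1 in cycle 1 and 666.0 to 850.0 in cycle 2. The difference between windows was -0.67 in cycle 1 and 0.57 in cycle 2 (limma, adjusted p = 0.019 for their difference). The call was lost without any of 8 pools, CT18, CT19, CT20, CT31, CT44, CT53, CT55 or CT56, and when each night was joined to the day after it. The 2 other probe sets of the gene were not called, either for the difference between cycles or in the comparison of windows. In the comparison of windows the probe set shown was not called either (limma, adjusted p = 0.859).

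The next genes in the order of that test were not called. Itga8, an integrin subunit, was higher at midday in both cycles, by 0.96 and 1.97 (1.46 ± 0.17 over 16 pools, adjusted p = 5.65e-05). Olfm3, an olfactomedin family protein, had midnight values of 631.7 to 796.1 in cycle 1 and 1066.7 to 1976.8 in cycle 2, with differences of 0.37 and -0.57. For Ccdc59 the differences were 0.68 and -0.29, and for Npc2, a lysosomal cholesterol carrier, -0.16 and 0.095. None of these 4 had an adjusted p under 0.05 for the difference between cycles.

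**Figure D5:**
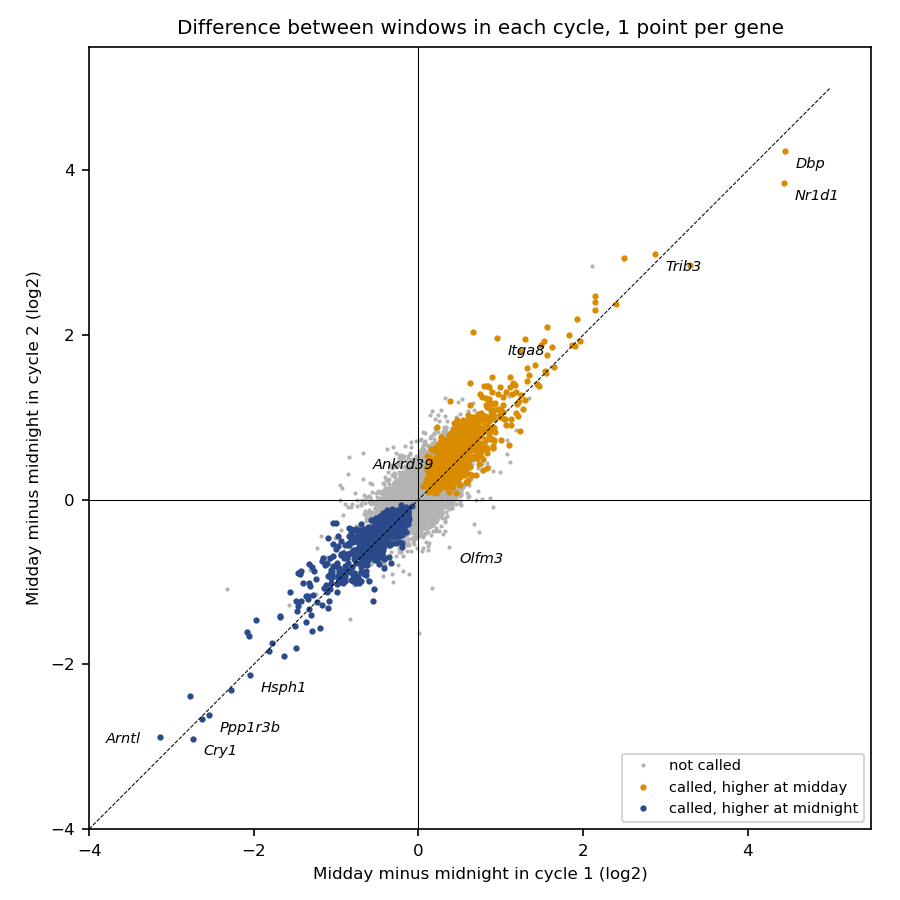
Difference between the midday and midnight windows (log2) in cycle 1 on the horizontal axis and cycle 2 on the vertical axis, with 1 point for each of 9254 genes with a mean intensity of 200 or more. Orange points were called higher at midday and blue points higher at midnight over all 16 pools, and the dashed line marks equal differences. Genes with large differences, from Arntl and Cry1 to Dbp, lie near the line, and Ankrd39 lies off it.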

How the data were processed

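Liver RNA of 48 hourly pools was measured on Affymetrix arrays, and 16 pools were compared here. The authors deposited 1 intensity per probe set and pool. The study's methods name GCRMA, whereas the submitters' processing notes name MAS5 without a version. The values are linear, from 20.6 to 1218382.7. A mean under 100, near background, was found for 49.5% of probe sets, and folds of such dim genes are understated. No value column lacked a sample. The precision is limited by the number of pools.

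The log2 values were fitted with limma 3.58.1 in R 4.3.3 (lmFit and eBayes, two-sided) over all 45101 probe sets, with Benjamini-Hochberg adjustment and calls at an adjusted p under 0.05. No offset was added. Probe sets were named from the platform annotation: 34958 had 1 symbol, 932 several and 9211 none listed. A gene was represented by its probe set of highest mean over the 48 pools. Summaries used Python 3.11.15, pandas 2.3.3, numpy 2.4.6 and scipy 1.17.1, and plots matplotlib 3.10.9. Of 737 genes in 47 lists, 666 had a probe set. Genes were named as the 10 of largest difference in each direction among called genes with a mean of 200 or more and no overlap between windows, every core clock gene, up to 4 called members of smallest p in each other list, the 5 genes of smallest p for the difference between cycles, and the 12 h genes. Another 28 called members were added after their values were seen, as were the uncalled Acaca, Scd1, Hmgcs1, Gys2, Nr3c1, Sirt1 and Hspa8. Promoters were listed for 155 of the 184 genes named. Windows, members and lists were chosen with earlier results of these data known. On simulated data with the means and spreads of the 16 pools, 100 of the 45101 probe sets, all with a mean of 100 or more, were changed by each size. Of these, 51% were recovered at a log2 difference of 0.5 and 85% at 1, with 5 false calls. The simulated noise was normal and independent between probe sets. In the real comparison 2706 probe sets were called, so these shares need not hold there. Alternatives covered the scaling, an offset, filters, blocks, a linear trend over circadian time, window widths and pools left out.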

Additional observations from a re-analysis of the deposited data

Results flagged for a closer look

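For each named gene, the 8 pools of each window were searched for 1 pool far from the rest by Dixon's criterion, in which chance alone flags about 1 group in 20. Of 368 groups 22 were flagged, and 14 of the 22 were the pool at CT65.

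At CT65, genes that were higher at midday were often lower than in any other midnight pool. The intensity of Fbxo21 was 763.0 at CT65 and 1556.2 or more in the other 7 midnight pools. Ulk1 was 786.4 against 2178.4 or more, Insr 3988.4 against 7226.3 or more, Ppara 14068.6 against 21020.9 or more and Gabarapl1 22467.0 against 31957.5 or more. Bdh1 was 34298.3 against 41594.2 or more, Psmd11 31754.4 against 40166.7 or more and Fech 26290.6 against 28911.3 or more. Sqle, which was called higher at midnight, was 5067.1 against 9681.4 or more, and Cry2 1569.7 against 2124.8 or more. Other genes were higher at CT65 than in the rest of the window: Per3 was 450.4 against at most 280.8, Eif1a 17249.7 against at most 13261.4 and Eif2b3 4062.8 against at most 3125.5. Rorb was 122.0 against at most 104.8, but it was near background in both windows and the array median was also highest at CT65 (110.9).

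Elsewhere in the midnight window, Ciart was 160.0 at CT41 against at most 117.0 in the other pools, and Junb was 182.2 at CT43 against at most 84.1. In the midday window, CT54 was low for Cry1 (818.3 against 1227.3 or more) and for Cyp2b10 (725.5 against 1427.8 or more), and CT31 was low for Tsc22d3 (2251.9 against 3585.7 or more) and Hspd1 (112186.3 against 126359.1 or more). Slc40a1 was 38756.4 at CT29 against 46399.0 or more, and Pck1 was 307171.9 at CT32 against at most 246911.6.

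The difference between windows in Ankrd39 was 1.25 higher on the log2 scale in cycle 2 than in cycle 1, and was called by the interaction test of limma (adjusted p = 0.019).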

How the results depend on the processing

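The labels pair no pools across the windows, and the pair block below joins pools by collection time, 12 h apart. Of the 163 called genes named, none changed direction under any alternative run, 129 were called whichever single pool was left out, and 48 were called in every setting. The cause of the changes below was not tested. Fits with pools or probe sets left out also rest on fewer of them. With hours 6 and 7 against 18 and 19 (4 pools a window) 349 probe sets were higher at midday and 362 at midnight, and 110 of the 163 genes lost their call. With hours 4 to 9 against 16 to 21, 2332 were higher at midday. A linear trend over circadian time in the fit gave 2112 at midday and 1571 at midnight. With that trend 17911 probe sets had an unadjusted p under 0.05 in limma, against 7451 in the main fit, and 0 of the 163 genes lost their call. The midnight count was 808 with each array centred on its median, 802 with 1 probe set per gene and 818 with pools 12 h apart as a pair block (1014 at midday), under which 31, 0 and 47 of the genes lost their call. Leaving out 1 pool gave 1164 to 1483 probe sets at midday, 970 to 1443 at midnight, 400 (without CT32) to 1156 (without CT29) in cycle 1 and 627 (without CT53) to 1112 (without CT31) in cycle 2. The count of cycle 1 was also low without CT18 (430), CT31 (467) or CT19 (526), and that of cycle 2 without CT56 (636) or CT54 (676). Each cycle fitted alone, an alternative chosen after seeing the data as was the removal of CT31 and CT65 together, gave 522 and 673. For the difference between cycles the count was 0 by quantile normalization and without CT31 and CT65, 2 with 1 probe set per gene, with an intensity trend and robust variances or without CT65 (Ankrd39 and 1 other), 2 with each night joined to the day after it (neither of them the probe set of Ankrd39), and 0 to 7 with 1 pool left out (7 without CT41). Directions turned only in uncalled genes, all near a difference of 0. With the narrow windows the difference was 0.011 for Arntl2, -0.0086 for Cry2, 0.0079 for Bhlhe41, 0.0045 for Rorb and 0.016 for Olfm3. Bhlhe41 was at 0.011 by quantile normalization, 0.023 centred and 0.0027 without CT31 and CT65, and between -0.016 and 0.0014 (without CT65) with 1 pool left out. Rorb was at 0.0028, 0.0021 and 0.00048, and between -0.047 and 0.0015 (without CT65). Olfm3 was at 0.041 without CT31 and CT65 and between -0.20 and 0.038 (without CT65). Ankrd39 was between -0.13 and 0.021, above 0 without CT18 (0.013), CT19 (0.0011), CT20 (0.016), CT32 (0.012) or CT41 (0.021).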
